A study of Mus musculus with 12 samples.

Results

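The 38 genes described here encode the folding, translocation, disposal and stress-signalling machinery of the endoplasmic reticulum (ER), taken from a fixed list of names out of the 24346 gene symbols in the deposited files. They comprise 11 ER chaperones and co-chaperones, 5 enzymes of disulfide formation, 6 genes of ER-associated degradation, 9 genes of translocation and signal peptide cleavage, and 7 genes of unfolded protein response signalling. Each of the 38 passed the filter on low values, so none was lost before testing. The cells were marginal zone B cells, the B lymphocytes of the splenic marginal zone, from wild-type and Trpm5-/- mice, in which the gene for the cation channel TRPM5 is disrupted. Cells of each genotype were held for 4 h with no stimulus, with lipopolysaccharide (LPS, a ligand of Toll-like receptor 4, at 10 µg/mL) or with an antibody to surface IgM (anti-IgM, 10 µg/mL, which crosslinks the B cell receptor). Each of the 6 groups had 2 libraries, giving 12 libraries in all. The sources used here do not give the strain, the age or sex of the animals, how the cells were purified, or which part of Trpm5 is missing in the mutant.

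Proteins that a cell will secrete or place in its membrane enter the ER through the Sec61 channel, lose their signal peptide, and fold with the help of chaperones and disulfide isomerases, while misfolded chains are sent back to the cytosol for degradation. When unfolded chains accumulate, the sensors encoded by Ern1 (IRE1), Eif2ak3 (PERK) and Atf6 act through the transcription factors XBP1, ATF4 and cleaved ATF6 to raise the transcription of this machinery, and PERK also slows translation by phosphorylating eIF2 alpha. B cells that become antibody-secreting cells are known for a large expansion of the ER, in which XBP1 has a central part.

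Levels are given in FPKM (fragments per kilobase of a transcript, scaled to the mapped fragments of the library), at the scale of the deposited files. Differences are on the log2(FPKM + 1) scale with the standard error (SE) of a limma model over all 12 libraries. A gene was called, and is said to have risen or fallen, at a Benjamini-Hochberg adjusted p under 0.05 over the 10797 genes tested. Whether paired libraries stem from different animals or cultures is not stated in the labels, so a p here measures only the scatter between libraries, and that scatter may be technical. FPKM summed to between 563461 and 805373 per library, and the libraries of each group correlated with each other at a Pearson r of 0.9589 to 0.9778 across genes. The sources used here give no total read counts, and depth relative to the first unstimulated wild-type library ran from 0.645 to 1.06. Trpm5 itself lay between 0.0196 and 0.434 FPKM in the wild-type libraries and between 0 and 0.0303 FPKM in the Trpm5-/- libraries, too low in either for a check of the labels. Summed over 8 marginal zone genes such as Cr2 and Cd9, FPKM lay between 518 and 1386. Over 6 follicular B cell genes such as Fcer2a (CD23) it lay between 850 and 3119. In wild-type cells with LPS the follicular sums were 2990 and 3119, against marginal zone sums of 518 and 538. These sums therefore do not check the B cell subset. The defining T cell genes Cd3e, Cd3d, Cd3g, Cd4 and Cd8a were under 1 FPKM in each library. Gzma, Elane and Camp were listed at 0. Other listed markers were expressed, with Lck of the T cell list between 13.5 and 66.25 FPKM. Summed FPKM lay between 22.62 and 42.62 for macrophage and monocyte genes and between 7.629 and 76.68 for dendritic cell genes. Averaged over the 3 conditions, Lyz2 was higher in Trpm5-/- (0.54 ± 0.10). C1qb (−0.69 ± 0.14) and Vcam1 (−0.50 ± 0.14) were lower there. Whether other cell types were present was not tested.

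Because these genes are known to share a promoter motif, the letters before their transcription starts were read first. The ER stress response element (ERSE) is bound by ATF6 and XBP1 together with the CCAAT-box factor NF-Y. It was searched as CCAAT and CCACG with 9 bases between them, on both strands of the 250 bases before the RefSeq start (GRCm38.p6). A promoter entry was matched for 31 of the 38 genes, Ero1l through its RefSeq name Ero1a and the others by symbol. Of these 31, 8 held a match (25.8%), against 35 of all 27025 promoters of that length (0.13%). The motif was chosen because genes of this kind are known to share it, so the higher share is not an independent result. Windows of 29 bases around the 9 matches are printed to show the letters behind these counts; most of the 31 promoters held no match. They read 5′ to 3′ on the strand of the gene, with the CCAAT and CCACG boxes, or their reverse complements ATTGG and CGTGG, in capitals.
Hspa5, chr2:34772020-34772048 (+): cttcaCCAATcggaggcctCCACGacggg
Hsp90b1, distal match, chr10:86705633-86705661 (-): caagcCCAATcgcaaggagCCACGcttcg
Hsp90b1, proximal match, chr10:86705528-86705556 (-): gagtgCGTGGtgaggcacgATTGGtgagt
Calr, chr8:84847070-84847098 (-): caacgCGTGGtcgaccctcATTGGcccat
Canx, chr11:50325795-50325823 (-): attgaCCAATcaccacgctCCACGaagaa
Dnajc3, chr14:118937822-118937850 (+): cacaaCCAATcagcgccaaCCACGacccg
Creld2, chr15:88819515-88819543 (+): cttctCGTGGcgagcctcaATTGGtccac
Pdia6, chr12:17266486-17266514 (+): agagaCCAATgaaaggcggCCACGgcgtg
Syvn1, chr19:6046527-6046555 (+): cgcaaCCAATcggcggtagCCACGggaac
The Hspa5 window lies within an annotated Hspa5 exon of GENCODE M21, whose first base is upstream of the RefSeq start, and the other windows overlap no annotated exon. The related ERSE-II, ATTGG and CCACG with 1 base between, occurred in Herpud1 only among the 31, against 0.037% of all promoters. Herpud1 also held the amino acid response element core TGATGCAA, which was present in 0.918% of all promoters. The XBP1-type core TGACGTGG occurred in 0 of 31 promoters and in 0.603% of all. ERSE, ERSE-II and the XBP1-type core hold the letters CCACG on one strand or the other, and TGATGCAA does not. A match describes letters and not a bound site, and no match says only that the letters are not in this window.

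**Figure D1:**
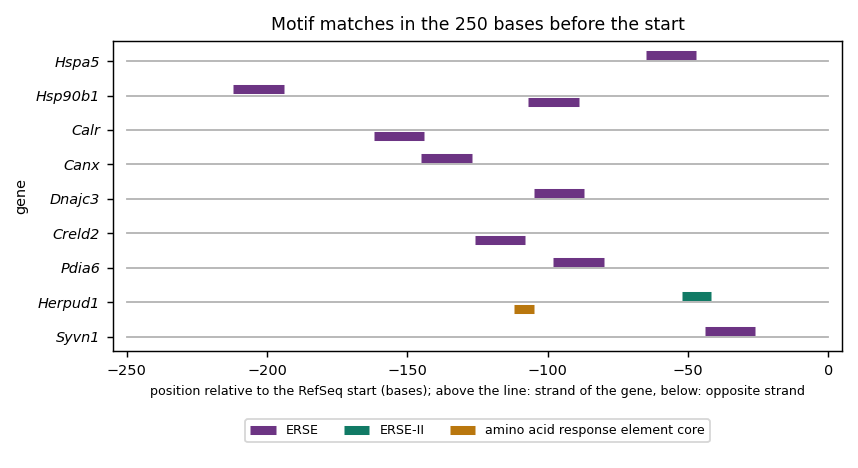
Positions of motif matches in the 250 bases before the RefSeq start of the 9 genes that hold one, in bases from the start, with bars above a line for the strand of the gene and below it for the opposite strand. Hsp90b1 holds 2 ERSE matches, and Herpud1 holds an ERSE-II and an amino acid response element core.

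Anti-IgM raised the folding machinery of wild-type cells broadly. Of the 38 genes, 27 rose and 1 fell, while 48.6% of all genes tested were called in this comparison (28 of 38 here). The median difference of the 38 was 0.565, against 0.0155 over all genes tested. Among the 4599 genes with a mean of at least 20 FPKM, which include 34 of the 38, the medians were 0.582 for the 34 and 0.205 for all, with 64.3% called. After quantile normalization, which forces the same distribution on each library, the split was 24 higher and 3 lower.

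The 11 chaperones rose without exception under anti-IgM, with a median of 0.753. Hspa5, which encodes BiP, the Hsp70 of the ER lumen, was at 338 and 366 FPKM in the unstimulated wild-type libraries and at 837 and 814 FPKM with anti-IgM. Its stimulated libraries were far above the unstimulated ones, a log2 difference of 1.23 ± 0.05 (limma, adjusted p = 7.12e-08). Sdf2l1, which keeps BiP clients from aggregating, went from 27.6 and 26.4 FPKM to 55.7 and 63.7 FPKM (1.11 ± 0.11), again with no overlap. Dnajb9 (ERdj4), a BiP co-chaperone and well-known XBP1 target, went from 24.6 and 23.8 to 47.9 and 49.8 FPKM (0.98 ± 0.07). The lectin chaperones Canx and Calr, which hold glycoproteins while they fold, rose by similar amounts, 0.84 ± 0.05 and 0.75 ± 0.06. Hyou1, the nucleotide exchange factor of BiP, rose by 0.84 ± 0.09, Manf, a BiP-binding secreted protein, by 0.74 ± 0.09, and Creld2 by 0.72 ± 0.07. Dnajb11 (0.67 ± 0.07), Hsp90b1 (the ER Hsp90, 0.58 ± 0.05) and Dnajc3 (0.37 ± 0.11) completed the group. Of the 8 genes with an ERSE match, 7 rose and Syvn1 was not called, where 28 of all 38 were called and 27.7% of all genes tested rose. In Trpm5-/- cells 6 of the 8 rose and 1 fell with anti-IgM. With LPS 6 rose and 1 fell in wild type, where 35% of all genes rose, and 4 rose and 1 fell in Trpm5-/-. Whether a match goes with the response was not tested.

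Disulfide enzymes rose apart from Pdia4. Pdia6 went from 111 and 113 FPKM to 216 and 212 FPKM (0.93 ± 0.05), and P4hb, the classical protein disulfide isomerase, from 116.8 and 120.6 to 213 and 218 FPKM (0.86 ± 0.05). Ero1l, the oxidase that recharges these isomerases, rose by 0.91 ± 0.07 and Pdia3, the partner of the lectin chaperones, by 0.53 ± 0.05. Pdia4 did not pass the test, with 170 and 163 FPKM unstimulated and 166 and 164 FPKM with anti-IgM, values that overlapped.

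Of the degradation genes, only Herpud1 was called under anti-IgM among 6, at 0.22 ± 0.05, and this small rise was −0.01 and not called after quantile normalization. Syvn1, the ubiquitin ligase HRD1, stood at 54.5 and 59.1 FPKM unstimulated and at 45.3 and 48.5 FPKM with anti-IgM. Those libraries were lower without overlap but the difference of −0.27 ± 0.11 did not pass (limma, adjusted p = 0.0718). Its partner Sel1l, the mannosidase-like Edem1 and the channel components Derl1 and Derl2 were not called either. Of 9 translocation genes 7 rose. Spcs3, a signal peptidase subunit, had the highest value at 0.61 ± 0.06, from 56.2 and 58.1 to 86.2 and 89.0 FPKM. Ssr1, of the translocon-associated complex, and Sec61a1, the channel itself, followed at 0.60 ± 0.06 and 0.58 ± 0.05. Ssr4 (0.47 ± 0.08), Ssr3 (0.41 ± 0.07), Ssr2 (0.35 ± 0.08) and Spcs2 (0.15 ± 0.05) also rose, and the small subunits Sec61b and Sec61g were not called. The Spcs2 value was −0.08 and not called after quantile normalization.

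The signalling genes did not move together. Ddit3, which encodes the transcription factor CHOP downstream of PERK and ATF4, went from 47.6 and 49.0 FPKM to 97.4 and 95.9 FPKM with anti-IgM (0.99 ± 0.06). Trib3, a pseudokinase induced by ATF4 and CHOP, rose from 5.63 and 5.74 to 13.03 and 14.09 FPKM (1.12 ± 0.13). Both genes separated the groups fully. Ppp1r15a (GADD34), which directs the phosphatase that reverses eIF2 alpha phosphorylation, rose by 0.65 ± 0.07, and Atf4 by 0.55 ± 0.08. The sensor Eif2ak3 fell, from 59.0 and 65.3 FPKM to 26.7 and 26.3 FPKM (−1.20 ± 0.08). It was the gene of the 38 that fell under anti-IgM. The other sensors, Atf6 at 12.03 to 13.14 FPKM in these 4 libraries and Ern1 at 1.08 to 1.66 FPKM, were not called. GENCODE M21 holds a shorter gene model named Ddit3 within the larger one, so reads of Ddit3 may have been divided by the authors' counting.

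Trpm5-/- cells gave 27 rises and 3 falls with anti-IgM. The background was 49.9% of all genes called and 65.4% of those with a mean of at least 20 FPKM. The genotypes shared 25 calls in the same direction, 89.3% of those in wild type and 83.3% of those in Trpm5-/-, with 0 in opposite directions. In Trpm5-/- cells Hspa5 went from 442 and 460 FPKM to 939 and 951 FPKM (1.07 ± 0.05), and Dnajb9 from 25.4 and 24.3 to 63.0 and 61.5 FPKM (1.29 ± 0.07). Sdf2l1 rose by 1.05 ± 0.11, Ddit3 by 0.80 ± 0.06 and Trib3 by 0.78 ± 0.13, and Eif2ak3 fell by 1.27 ± 0.08. Pdia4, at 228 and 227 FPKM in unstimulated Trpm5-/- libraries, fell to 187 and 185 FPKM (−0.29 ± 0.05).

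**Figure D2:**
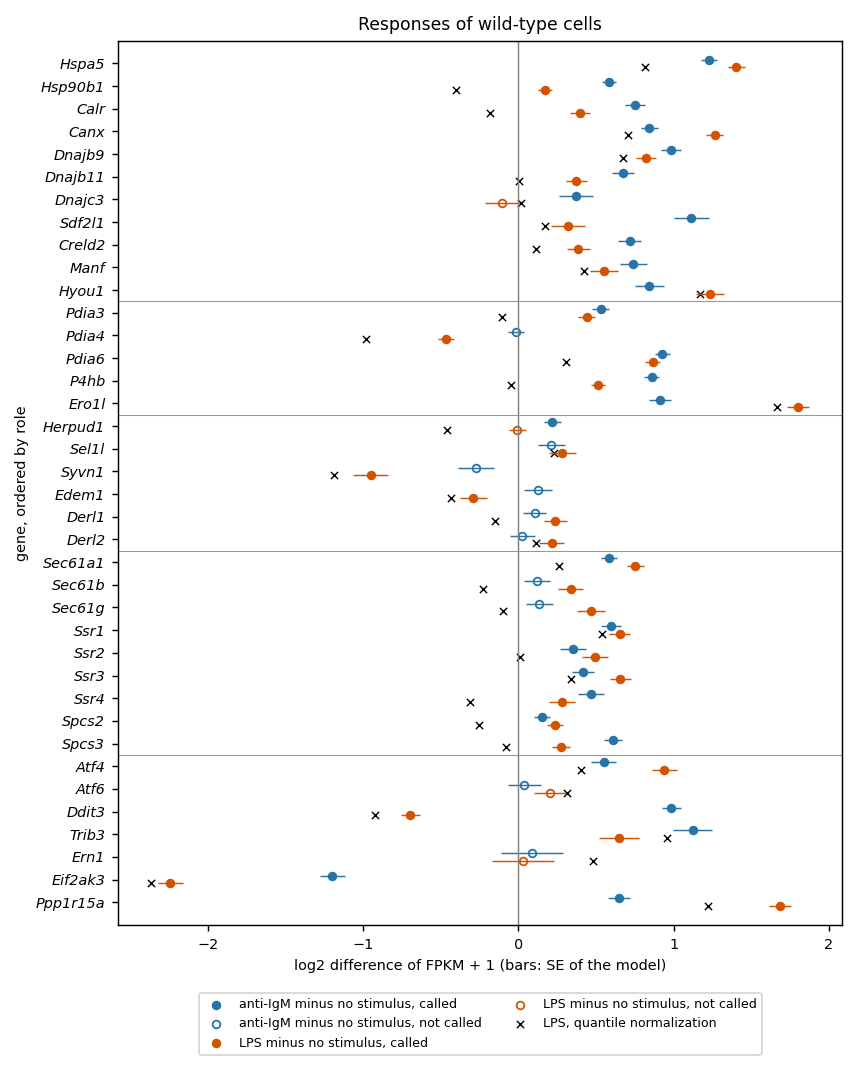
Log2 differences of FPKM + 1 in wild-type cells for anti-IgM (blue) and LPS (orange) against no stimulus, with SE of the model as bars, filled where called, and the LPS difference after quantile normalization as crosses. Of the 11 chaperones all are called as higher with anti-IgM and 10 with LPS, Ddit3 lies at 0.99 with anti-IgM and −0.70 with LPS, and most LPS values shift to the left after quantile normalization.

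LPS called more genes overall than anti-IgM, and the response of these genes was more divided. In wild-type cells 29 of the 38 rose and 5 fell, where 69.4% of all genes tested were called, and the median was 0.38 against −0.0177 for all genes. The distribution of values was wider with LPS: the 90th percentile of FPKM was 49.9 to 51.5 in the 4 LPS libraries and 41.4 to 42.9 in the 4 unstimulated ones. Among genes with a mean of at least 20 FPKM the median was 0.37 for all and 0.391 for the 34 genes described here, with 81% of all called. After quantile normalization 14 rose and 11 fell, and 18 of the 34 kept their call in the same direction. The rises that kept it were Hspa5, Canx, Dnajb9, Manf, Hyou1, Pdia6, Ero1l, Sec61a1, Ssr1, Ssr3, Atf4, Trib3 and Ppp1r15a, and the falls were Pdia4, Syvn1, Edem1, Ddit3 and Eif2ak3.

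Among the chaperones, 10 of 11 rose with LPS and Dnajc3 was not called. Hspa5 went from 338 and 366 to 922 and 943 FPKM, a difference of 1.40 ± 0.05 (limma, adjusted p = 5.13e-09) and 0.81 after quantile normalization. Canx went from 114 and 121 to 284 and 284 FPKM (1.27 ± 0.05) and Hyou1 from 16.2 and 14.6 to 37.21 and 38.01 FPKM (1.23 ± 0.09). All 3 were called as higher under either scaling. Dnajb9 rose by 0.82 ± 0.07 and Manf by 0.55 ± 0.09. Sdf2l1, at 37.0 and 31.2 FPKM with LPS, rose by 0.32 ± 0.11, and Creld2 and Dnajb11 by 0.39 ± 0.07 and 0.37 ± 0.07; none of these 3 was called after quantile normalization. The direction of Calr (0.40 ± 0.06) and Hsp90b1 (0.17 ± 0.05) depended on the scaling, being −0.18 and −0.40 after quantile normalization, both called as lower.

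Ero1l had the highest rise of the 38 with LPS. It stood at 16.3 and 17.2 FPKM unstimulated and at 59.7 and 62.2 FPKM with LPS, a difference of 1.80 ± 0.07 (limma, adjusted p = 6.45e-09). Pdia6 rose by 0.86 ± 0.05. Pdia4 went the other way, from 170 and 163 FPKM down to 119 and 122 FPKM, a fall of 0.47 on the log2 scale (SE 0.05), and the groups did not overlap. P4hb (0.51 ± 0.05) and Pdia3 (0.44 ± 0.05) rose at the deposited scale, but were −0.04 and −0.11 and not called after quantile normalization.

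In the degradation group Syvn1 fell from 54.5 and 59.1 to 28.2 and 29.5 FPKM (−0.95 ± 0.11) and Edem1 from 32.3 and 34.2 to 26.0 and 28.1 FPKM (−0.29 ± 0.09). Sel1l rose by 0.28 ± 0.09, Derl2 by 0.22 ± 0.08 and Derl1 by 0.24 ± 0.07, the last being −0.15 and not called after quantile normalization. Herpud1 was not called, with 93.0 and 94.5 FPKM unstimulated and 94.8 and 91.9 FPKM with LPS, values that overlapped. The 9 translocation genes all rose at the deposited scale. Sec61a1 (0.75 ± 0.05), Ssr3 (0.66 ± 0.07) and Ssr1 (0.65 ± 0.06) kept their calls after quantile normalization, while the signs of Sec61b (−0.23), Sec61g (−0.10), Ssr4 (−0.31), Spcs2 (−0.25) and Spcs3 (−0.08) turned. Ssr2, at 0.49 ± 0.08, kept its sign but not its call.

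Signalling genes held the widest range under LPS. Ppp1r15a went from 54.4 and 62.9 to 190 and 191 FPKM, a difference of 1.68 ± 0.07, and Atf4 from 105 and 104 to 186 and 217 FPKM (0.94 ± 0.08). Trib3 rose by 0.65 ± 0.13. Eif2ak3 fell from 59.0 and 65.3 to 12.8 and 11.9 FPKM, and its −2.24 ± 0.08 was the lowest value among the 38 (limma, adjusted p = 3.98e-09). Ddit3 also fell, from 47.6 and 49.0 to 30.0 and 28.8 FPKM (−0.70 ± 0.06). So within 1 stimulus the kinase PERK and its downstream factor CHOP were lower while ATF4 and GADD34 were higher at the RNA level. Atf6 (0.20 ± 0.10) and Ern1 were not called.

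With LPS, 23 of the 38 rose and 5 fell in Trpm5-/- cells, and after quantile normalization 12 rose and 14 fell. Called there were 68.7% of all genes and 80.2% of those with a mean of at least 20 FPKM. Among the latter the median was 0.334 for all and 0.311 for the 34 genes described here. The genotypes shared 27 calls in the same direction, 79.4% of those in wild type and 96.4% of those in Trpm5-/-, again without a count over all genes to set beside them. Hspa5 went from 442 and 460 to 1118 and 1079 FPKM (1.28 ± 0.05), and Hyou1 from 16.6 and 16.9 to 42.0 and 49.9 FPKM (1.40 ± 0.09). Ero1l rose by 1.81 ± 0.07 and Ppp1r15a by 1.80 ± 0.07, and Eif2ak3 fell by 2.25 ± 0.08. Each of these 5 genes separated the stimulated from the unstimulated Trpm5-/- libraries. Pdia4 fell from 228 and 227 to 133 and 123 FPKM (−0.83 ± 0.05).

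**Figure D3:**
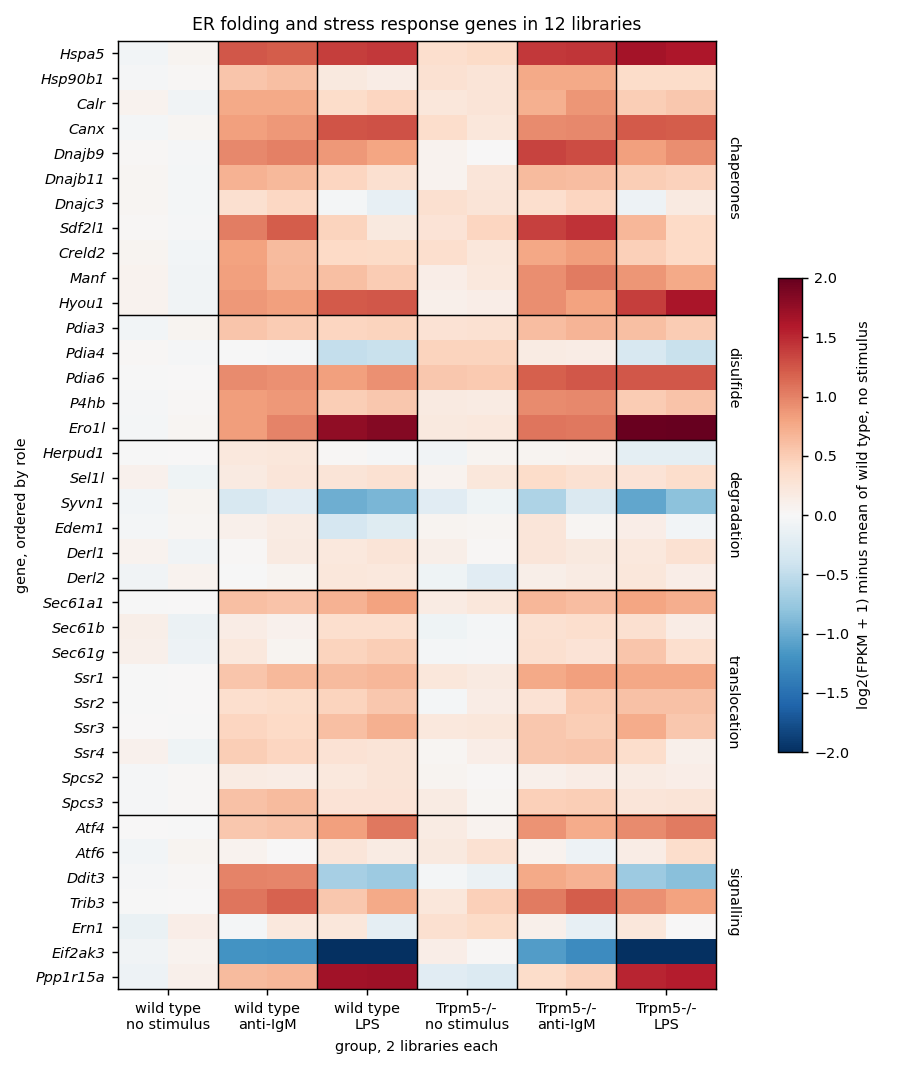
Log2(FPKM + 1) of the 38 genes in each of the 12 libraries, minus the mean of the 2 unstimulated wild-type libraries, with genes in rows by role and libraries in columns by group. The color scale ends at −2.0 and 2.0, which Eif2ak3 passes with LPS and Ero1l reaches in Trpm5-/- cells with LPS. Libraries of a group resemble each other, and Ddit3, Eif2ak3, Pdia4 and Syvn1 stand out against the rises.

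Set against each other directly in wild-type cells, 10 of the 38 were higher with LPS and 15 higher with anti-IgM. Called there were 52.7% of all genes and 68.2% of those with a mean of at least 20 FPKM. After quantile normalization 3 were higher and 22 lower with LPS. The median of the 38 was −0.0784, against a median of 0.199 among all genes with a mean of at least 20 FPKM. Ddit3 differed most, at 30.0 and 28.8 FPKM in the LPS libraries against 97.4 and 95.9 FPKM in the anti-IgM libraries, a difference of −1.68 ± 0.06 (limma, adjusted p = 1.5e-08). Higher with anti-IgM were also Eif2ak3 (−1.04 ± 0.08), Sdf2l1 (−0.79 ± 0.11), Syvn1 (−0.68 ± 0.11), Dnajc3 (−0.47 ± 0.11) and Pdia4 (−0.45 ± 0.05). Higher with LPS were Ppp1r15a (1.04 ± 0.07), Ero1l (0.89 ± 0.07) and Hyou1 (0.39 ± 0.09), which kept their calls after quantile normalization, and Canx (0.42 ± 0.05), Atf4 (0.39 ± 0.08) and Ssr3 (0.24 ± 0.07), which did not. For Hspa5 the difference of 0.18 ± 0.05 turned to −0.23 after quantile normalization, and those of Sec61a1, Sec61b and Sec61g (0.17, 0.22 and 0.33) turned to −0.11, −0.14 and −0.02. Pdia6, at 198 and 211 FPKM in the LPS libraries against 216 and 212 FPKM, was not called. In Trpm5-/- cells 5 were higher with LPS and 14 with anti-IgM, and after quantile normalization 4 and 21. The background was 51.9% of all genes and 66.7% of those with a mean of at least 20 FPKM. Ddit3 again had the lowest value, −1.51 ± 0.06, and Ppp1r15a the highest, 1.14 ± 0.07. Canx (0.27 ± 0.05 in these cells) was −0.02 and not called after quantile normalization.

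**Figure D4:**
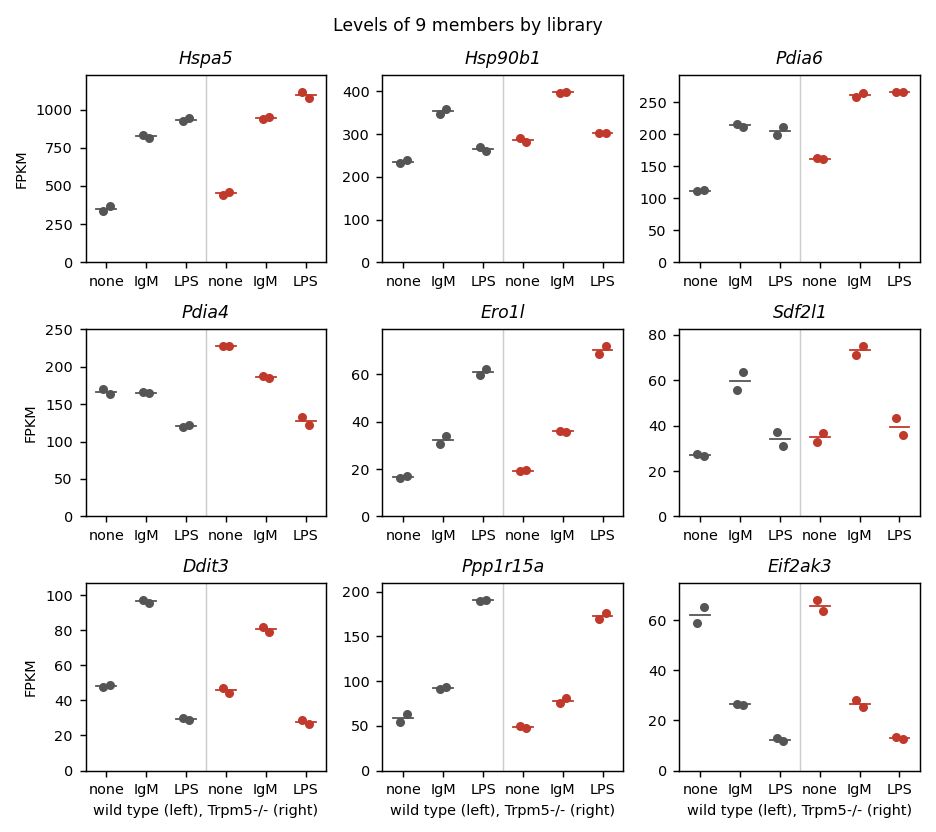
FPKM of 9 genes in each library (points) with the mean of the 2 libraries of a group (lines), wild type in grey and Trpm5-/- in red, with no stimulus, anti-IgM or LPS. Hspa5 rises from 338 and 366 to 922 and 943 FPKM with LPS in wild type, Pdia6 is higher in Trpm5-/- libraries in each condition, and Ddit3 and Ppp1r15a are lower there.

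Markers of marginal zone B cells moved with genotype in each condition. Summed over 8 marginal zone genes, FPKM was 1094 and 1073 in wild type and 1372 and 1386 in Trpm5-/- with no stimulus, 736 and 742 against 941 and 975 with anti-IgM, and 518 and 538 against 752 and 717 with LPS. The sums were thus higher in Trpm5-/-, without overlap, and Cd9 made up a large part of the difference. With LPS, Cd9 alone was at 241 and 250 FPKM in wild type and at 458 and 421 FPKM in Trpm5-/-. Over the 3 conditions 5 of the 8 genes were higher and 0 lower, among them Cd9 (0.75 ± 0.03). Cr2, Cd1d1 and S1pr1 were not called. Of 6 follicular B cell genes 5 were lower in Trpm5-/- and 0 higher, among them Fcer2a (−0.82 ± 0.04). The part of this in the genotype differences of the 38 genes was not tested.

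The genotypes differed less than the conditions. In unstimulated cells 6 of the 38 were higher in Trpm5-/- and 0 lower, where 6.11% of all genes and 9.94% of those with a mean of at least 20 FPKM were called, and the medians were 0.163 for the 38 and 0.0225 for all genes. These 6 were the abundant folding genes Pdia6, Pdia4, Hspa5, Pdia3, Canx and Hsp90b1. Pdia6 stood at 111 and 113 FPKM in wild type and at 162 and 161 FPKM in Trpm5-/- (0.52 ± 0.05; limma, adjusted p = 0.000387). Pdia4 stood at 170 and 163 against 228 and 227 FPKM (0.45 ± 0.05), and Hspa5 at 338 and 366 against 442 and 460 FPKM (0.36 ± 0.05). For each of the 3, both Trpm5-/- libraries exceeded both wild-type libraries. Pdia3 (0.29 ± 0.05), Canx (0.29 ± 0.05) and Hsp90b1 (0.28 ± 0.05) differed less. After quantile normalization the split was 5 higher and 1 lower, and with the compared groups alone limma called 1 of the 6, Pdia6. Pdia6 and Pdia4 kept their calls whichever library was left out. Hspa5 lost its call without Trpm5-/- replicate 2 and Hsp90b1 without Trpm5-/- replicate 1. The calls of Canx and Pdia3 were lost without either of wild-type replicate 1 and Trpm5-/- replicate 1, and that of Pdia3 also without Trpm5-/- replicate 2. No degradation, translocation or signalling gene was called here by limma. An unadjusted p under 0.05 was reached by 6 of those 22 and by 2226 of all 10797 genes.

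With anti-IgM 3 of the 38 differed between genotypes, 2 higher and 1 lower in Trpm5-/-, where 3.83% of all genes and 6.04% of those with a mean of at least 20 FPKM were called. Dnajb9 stood at 47.9 and 49.8 FPKM in wild type and at 63.0 and 61.5 FPKM in Trpm5-/- (0.34 ± 0.07), and Pdia6 at 216 and 212 against 258 and 265 FPKM (0.29 ± 0.05). Ddit3 was lower, at 82.1 and 79.0 FPKM in Trpm5-/- against 97.4 and 95.9 FPKM (−0.26 ± 0.06; limma, adjusted p = 0.049). Each of the 3 separated the genotypes, yet 0 calls were left when any one of the 4 anti-IgM libraries was removed, and the split after quantile normalization was 1 higher and 1 lower. Hspa5, at 939 and 951 against 837 and 814 FPKM, did not pass (0.20 ± 0.05; limma, adjusted p = 0.078). With LPS 2 of the 38 were higher in Trpm5-/- and 0 lower, where 3.59% of all genes and 5.35% of those with a mean of at least 20 FPKM were called, a share near that of the 38. These were Pdia6, at 266 and 266 against 198 and 211 FPKM (0.38 ± 0.05), and Hspa5, at 1118 and 1079 against 922 and 943 FPKM (0.24 ± 0.05). The call of Hspa5 under LPS was lost without any one of the 4 LPS libraries, and that of Pdia6 was kept. All of these calls with anti-IgM or LPS were lost when limma was fitted on the compared groups alone.

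Averaged over the 3 conditions, 13 of the 38 were higher and 3 lower in Trpm5-/-, where 16% of all genes and 24.3% of those with a mean of at least 20 FPKM were called. The median was 0.105 for the 38 and 0.0109 for all genes, and 0.102 against 0.0441 among genes with a mean of at least 20 FPKM. All 5 disulfide enzymes of the 38 were higher: Pdia6 by 0.40 ± 0.03 (limma, adjusted p = 1.36e-05), Pdia4 by 0.24 ± 0.03, Ero1l by 0.18 ± 0.04, Pdia3 by 0.17 ± 0.03 and P4hb by 0.10 ± 0.03. This did not extend to the 16 other disulfide and proline-folding enzymes tested, of which limma called only Ero1lb (0.35 ± 0.06). Of the chaperones 7 of 11 were higher, led by Sdf2l1 (0.29 ± 0.06), Hspa5 (0.26 ± 0.03), Manf (0.23 ± 0.05) and Hsp90b1 (0.21 ± 0.03), with Dnajb9, Calr and Canx between 0.12 and 0.14. Ssr1 (0.17 ± 0.04) was the translocation gene called. The 3 that were lower came from the stress-signalling and degradation groups: Ppp1r15a (−0.21 ± 0.04), Ddit3 (−0.14 ± 0.04) and Herpud1 (−0.12 ± 0.03). Ppp1r15a stood at 54.4 and 62.9 against 49.7 and 48.1 FPKM unstimulated, at 91.0 and 93.3 against 75.6 and 80.9 FPKM with anti-IgM, and at 190 and 191 against 169 and 177 FPKM with LPS. In each condition its Trpm5-/- libraries were below the wild-type ones. Both Trpm5-/- libraries exceeded both wild-type libraries in each of the 3 conditions for 8 genes (Hspa5, Hsp90b1, Manf, Pdia3, Pdia4, Pdia6, Ero1l and Ssr1), as they did for 7.47% of all genes tested. They were below them for 2, Ddit3 and Ppp1r15a, as for 4.51% of all genes. Under every alternative run for this mean and with every library left out in turn, 10 of the 16 calls were kept. They were those of the 8 genes that were above, of Sdf2l1 and of Ppp1r15a. The fit on the compared groups alone was not among these alternatives, since this mean compares all 12 libraries. Those of Calr, Canx, Dnajb9, P4hb, Herpud1 and Ddit3 were each lost without at least 1 library.

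**Figure D5:**
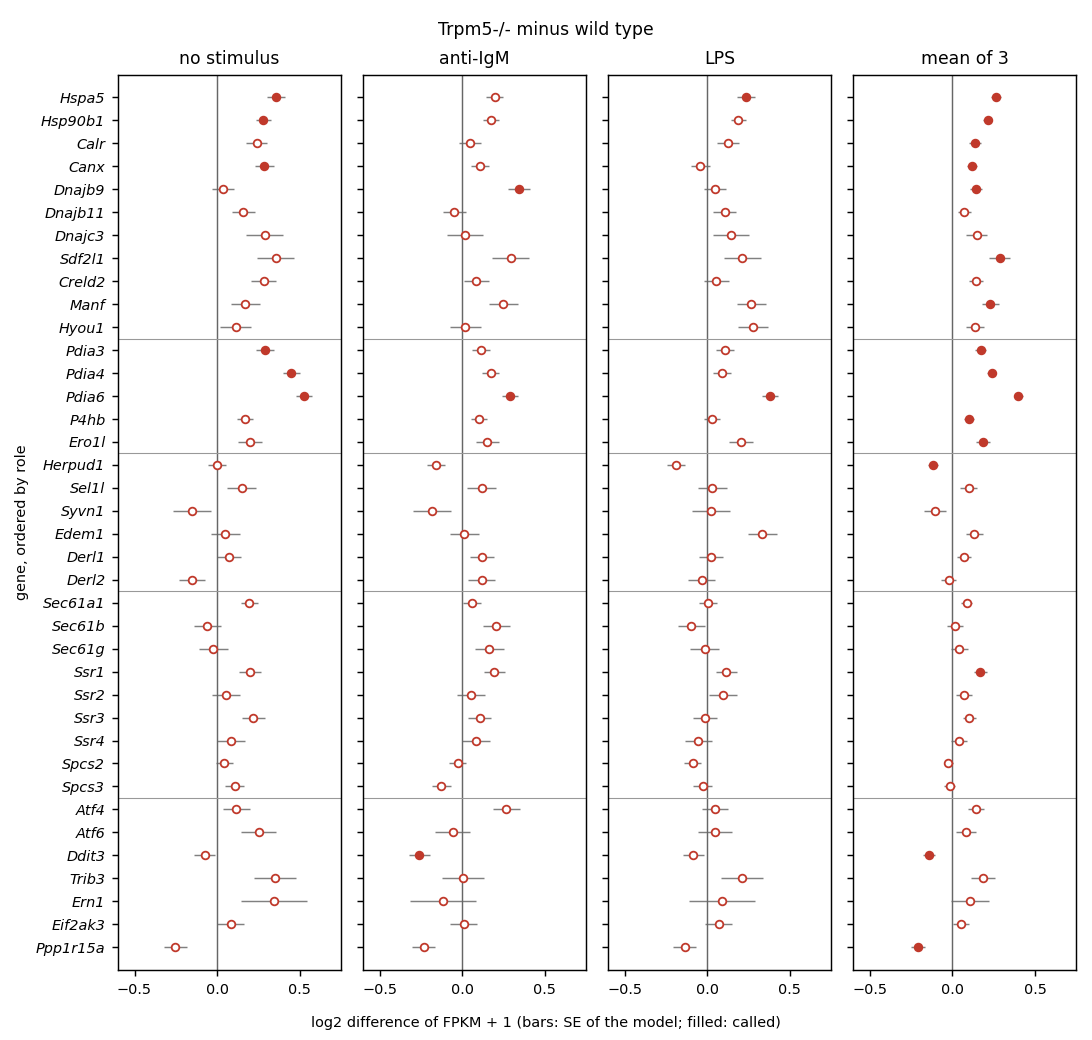
Trpm5-/- minus wild type on the log2(FPKM + 1) scale for the 38 genes with no stimulus, anti-IgM, LPS and averaged over the 3 conditions, with SE of the model as bars and filled points where called. Pdia6 is filled in each panel, the disulfide enzymes lie to the right of 0 in the mean, and Ppp1r15a, Ddit3 and Herpud1 lie to its left.

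Whether the responses themselves differed between genotypes was tested by the interaction. For LPS 0 of the 38 were called, where limma called 0.102% of all genes. At an unadjusted p under 0.05 with limma were 7 of the 38 and 1113 of all 10797 genes. Large values among the 38 were those of Pdia4 (−0.36 ± 0.07; limma, adjusted p = 0.16) and Canx (−0.33 ± 0.08; limma, adjusted p = 0.205). For anti-IgM 0 were called as well, with 0.0278% of all genes called by limma. Here 8 of the 38 and 857 of all 10797 genes were at an unadjusted p under 0.05. Values went both ways there, with Dnajb9 at 0.31 ± 0.09 (limma, adjusted p = 0.491), Pdia4 at −0.27 ± 0.07 (limma, adjusted p = 0.44) and Pdia6 at −0.24 ± 0.07 (limma, adjusted p = 0.482). A difference in response between the genotypes was therefore not established for any of the 38 at this number of libraries.

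Among the other genes of the secretory pathway, Xbp1 moved in opposite directions with the stimuli. It stood at 74.2 and 69.8 FPKM in unstimulated wild-type cells, at 103 and 106 FPKM with anti-IgM and at 53.9 and 55.9 FPKM with LPS. Thus it rose by 0.53 ± 0.06 with anti-IgM and fell by 0.38 (SE 0.06) with LPS, and the groups did not overlap. In Trpm5-/- cells the values were 90.8 and 90.4 FPKM unstimulated, 119 and 124 FPKM with anti-IgM and 58.5 and 57.0 FPKM with LPS, giving 0.42 ± 0.06 and −0.64 ± 0.06. The genotype difference of Xbp1 was 0.33 ± 0.06 in unstimulated cells (limma, adjusted p = 0.00968) and 0.20 ± 0.03 over the 3 conditions. Gene-level FPKM does not separate the spliced, active form of Xbp1 RNA from the unspliced form.

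Counts over 9 further lists of genes give the setting. Over all genes tested in wild type, 27.7% rose and 20.9% fell with anti-IgM, and 35% rose and 34.4% fell with LPS. Among genes with a mean of at least 20 FPKM, 64.3% were called with anti-IgM and 81% with LPS, so that many of the list counts lie near the background. N-glycosylation genes, which attach and trim the glycans read by the lectin chaperones, rose in 12 of 16 with anti-IgM and in 14 of 16 with LPS in wild type, with 0 falls. The oligosaccharyltransferase subunits Rpn1 and Stt3a rose by 0.88 ± 0.06 and 0.73 ± 0.07 with anti-IgM and by 1.05 ± 0.06 and 1.13 ± 0.07 with LPS. ER-to-Golgi transport genes rose in 9 of 20 with anti-IgM and in 14 of 20 with LPS, among them the COPII GTPase Sar1a (0.74 ± 0.07 and 1.25 ± 0.07). Other disulfide and proline-folding enzymes were divided, with 2 rises and 6 falls of 16 under anti-IgM and 4 rises and 7 falls under LPS. In that list Ero1lb, the paralog of Ero1l, fell from 42.4 and 38.4 to 18.5 and 19.4 FPKM with anti-IgM (−1.05 ± 0.10) and to 8.47 and 8.74 FPKM with LPS (−2.11 ± 0.10). The lumenal chaperone Erp29 fell from 161 and 151 to 34.5 and 33.6 FPKM with LPS (−2.16 ± 0.07), where the thioredoxin-like Erp44 rose by 1.24 ± 0.06. So the paralogs Ero1l and Ero1lb moved in opposite directions with either stimulus. Other translocation genes rose in 7 and fell in 3 of 16 with anti-IgM, and rose in 10 and fell in 4 with LPS. The signal peptidase subunit Sec11c fell by 1.32 (SE 0.07) with anti-IgM and by 1.23 (SE 0.07) with LPS. Other degradation genes rose in 6 and fell in 1 of 17 with anti-IgM and rose in 8 and fell in 4 with LPS, with the segregase Vcp at 0.40 ± 0.05 and 0.81 ± 0.05. Quantile normalization changed these splits: with LPS it left 9 rises and 1 fall of N-glycosylation genes, 11 and 1 of transport genes, 1 and 9 of the other disulfide enzymes, 7 and 4 of the other translocation genes and 7 and 7 of the other degradation genes. With anti-IgM the other degradation genes went to 4 rises and 6 falls, the transport genes to 7 and 2 and the other disulfide enzymes to 1 and 6. The genes named from these lists kept their direction under it, and Vcp was not called there with anti-IgM.

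Genes listed as downstream of ATF4 rose in 16 of 18 with anti-IgM (median 0.982) and in 14 of 18 with LPS (median 0.948), with 0 and 1 falls. Many are amino acid and one-carbon genes, and others, such as Atf3, Cebpb and Ddit4, are not. Shmt2, a mitochondrial serine hydroxymethyltransferase, rose by 1.33 ± 0.04 with anti-IgM and 1.57 ± 0.04 with LPS. The list is named for ATF4, but its amino acid transporters and tRNA synthetases are known to answer to other growth signals too. Chaperones of the cytosol and mitochondria rose in 13 of 16 with anti-IgM and 15 of 16 with LPS, with 0 falls and a median of 1.46 with LPS. Hspa8, the constitutive cytosolic Hsp70, went from 878 and 847 to 1734 and 1738 FPKM with anti-IgM and to 2790 and 2856 FPKM with LPS. Other regulators of the stress response gave 6 rises and 3 falls of 16 with anti-IgM and 6 and 6 with LPS, and Eif2s1, which encodes the eIF2 alpha substrate of PERK, rose by 0.98 ± 0.06 and 1.97 ± 0.06. Genes listed for the plasma cell programme rose in 4 and fell in 7 of 15 with anti-IgM and rose in 4 and fell in 9 with LPS. That list also holds B cell identity factors such as Pax5, Bach2, Bcl6 and Ciita, so its counts give no direction for the programme. After quantile normalization the 16 other regulators gave 5 rises and 3 falls with anti-IgM and 8 and 6 with LPS. The genes of the plasma cell list gave 4 and 8 with either stimulus. Irf4, which drives the plasma cell programme, rose by 1.89 ± 0.06 and 2.52 ± 0.06. Mzb1, an ER chaperone partner of marginal zone and plasma cells, fell by 1.31 (SE 0.06) and 1.80 (SE 0.06).

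Between genotypes fewer genes of these lists were called, as was so for all genes. Without stimulus 4.45% of all genes were called as higher and 1.66% as lower in Trpm5-/-, and 9.94% of genes with a mean of at least 20 FPKM were called. In unstimulated cells ATF4 targets were higher in Trpm5-/- in 11 of 18 (median 0.312) and cytosolic or mitochondrial chaperones in 8 of 16 (median 0.219), with 0 lower in either. Shmt2 was higher by 0.45 ± 0.04, Phgdh, which starts serine synthesis, by 0.41 ± 0.05, Hspa8 by 0.46 ± 0.05 and the mitochondrial chaperonin Hspd1 by 0.41 ± 0.06. Of 16 N-glycosylation genes and 17 other degradation genes limma called 0, with 1 and 4 at an unadjusted p under 0.05. Of all 10797 genes 2226 were at an unadjusted p under 0.05 there. Markers of antibody-secreting cells, which hold much ER, gave a summed FPKM of 116 and 122 in wild type and 125 and 143 in Trpm5-/- with no stimulus, 116.8 and 126.4 against 148 and 140 with anti-IgM, and 99.0 and 105 against 113 and 127 with LPS. The sum was higher in Trpm5-/- mainly through Jchain, and without it the sums were 95.2 and 97.3 against 91.2 and 94.6 with no stimulus, 100.4 and 109 against 106 and 105 with anti-IgM, and 83.4 and 91.9 against 88.5 and 97.3 with LPS. The ER enzyme Txndc5 made up 47.1% to 78.2% of the sum and was not called over the 3 conditions (0.02 ± 0.04; limma, adjusted p = 0.847), and Sdc1, a surface marker of these cells, was at −0.36 ± 0.11 (limma, adjusted p = 0.0559). Within that list of 7, of which 6 are in the files and 5 were tested, Tnfrsf17 was under 1 FPKM in each library. Jchain, which encodes the joining chain of secreted IgM, was at 20.7 and 25.2 FPKM in wild type and 33.4 and 48.5 FPKM in Trpm5-/- with no stimulus (0.79 ± 0.18), and 0.93 ± 0.10 higher over the 3 conditions. Summed erythroid markers ranged from 427 to 878 FPKM in wild type and from 272 to 750 FPKM in Trpm5-/-. The part of these cell types in the genotype differences was not tested, and in bulk RNA more cells of a type and more RNA per cell cannot be told apart.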

How the data were processed

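Full-length cDNA was made from total RNA with a SMART-Seq HT kit and sequenced from Nextera libraries, per the labels' protocols. The authors deposited 1 value per gene symbol and library. The unit is not written in the files and was taken as FPKM, because the authors name Cufflinks and low values step by gene and library. TopHat2 2.0.13, Bowtie2 2.2.3, SAMtools 0.1.19, Cufflinks 2.2.1 and mm10 are named per the submitters' processing notes. The sources used here do not give the annotation or the counting settings. Median ratios of 1.008 to 1.015 between libraries show that the deposited values were already scaled, and no further scaling was applied.

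The 10797 genes that reached 1 FPKM in 2 or more libraries were analysed as log2(FPKM + 1), which understates changes of low genes, with limma 3.58.1 in R 4.3.3. A group-means model over 12 libraries with a mean-variance trend had 6 residual degrees of freedom. It gave 12 comparisons, 2-sided, and was tested on simulated data. Alternatives were a pseudocount of 0.1, no filter, a mean of at least 5 FPKM, median-ratio scaling, quantile normalization, the compared groups alone, no trend, a replicate block and each library left out. Named genes were the 38 members, Trpm5, Xbp1, and 2 to 4 called genes of smallest p per list and comparison described; Jchain, Ero1lb with LPS and a few others named beside them were chosen after their values were seen. Members and lists were chosen with earlier results of these data known. Promoters are from RefSeq (GRCm38.p6) and gene models from GENCODE M21.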

Additional observations from a re-analysis of the deposited data

How the results depend on the processing

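Quantile normalization turned signs that the other alternatives kept. For LPS in wild type the values became −0.18 for Calr, −0.15 for Derl1, −0.40 for Hsp90b1, −0.0447 for P4hb, −0.11 for Pdia3, −0.23 for Sec61b, −0.10 for Sec61g, −0.25 for Spcs2, −0.0767 for Spcs3 and −0.31 for Ssr4. For LPS in Trpm5-/- they became −0.28 for Calr, −0.20 for Derl1, −0.0615 for Dnajb11, −0.15 for P4hb, −0.32 for Pdia3, −0.24 for Sec61b, −0.0705 for Sec61g and −0.21 for Spcs3. For anti-IgM in wild type they became −0.0128 for Herpud1 and −0.0804 for Spcs2. For LPS against anti-IgM they became −0.23 for Hspa5, −0.11 for Sec61a1, −0.14 for Sec61b and −0.0192 for Sec61g in wild type and −0.0227 for Canx in Trpm5-/-. The cause was not tested. Genotype calls were few and moved with the settings. In unstimulated cells the 6 calls became 3 without the trend, 1 with the compared groups alone, which leaves fewer libraries, and 3 to 6 with a library left out. With LPS the 2 calls became 1 without the filter, 1 without the trend, 0 with the compared groups alone and 1 with any library left out. With anti-IgM the 3 calls became 0 in each of those but the filter. Over the 3 conditions the 16 calls became 10 without the trend and 10 to 15 with a library left out. Total calls for either stimulus stayed within 1.5 times, but their split did not: after quantile normalization LPS gave 14 rises and 11 falls in place of 29 and 5 in wild type, and 12 and 14 in place of 23 and 5 in Trpm5-/-. With the replicate number as a block the genotype comparisons gave 7, 2, 3 and 17 calls and the interactions 0. The numbers are only shared: deviations of same-numbered libraries correlated between −0.172 and 0.199 over 15 pairs of groups, 3 of them above 0.1. With 2 libraries per group and no read counts, precision at low FPKM is unknown.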
